A study of Ovis aries with 36 samples.

Results

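The genes described here are 62 of the 26478 sheep genes counted in the pineal gland, pars tuberalis and hypothalamus of rams, 0.234% of all gene IDs. They were chosen by their measured tissue levels, for high counts in at least 1 tissue together with broadly similar counts in all 3. Each library's counts were expressed as CPM (the gene's count divided by the library's total and multiplied by 1000000), and the median over the 12 libraries of a tissue was taken as the tissue level. A gene was a member when its highest tissue level was at least 1000 CPM and the ratio of its highest to its lowest tissue level lay below 4 and above a lower limit set slightly over 1. Of 147 genes with a tissue level of at least 1000 CPM, 85 had a ratio of 4 or more and were left out. The lower limit of the ratio removed 0 genes. The levels, their order and their differences between tissues are therefore a description of chosen genes and were not tested.

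The study sequenced messenger RNA from 12 rams, adults of the sheep breed Rasa Aragonesa, 6 classed as sexually active and 6 as not active (inactive in what follows). Animals 1 to 6 were active and animals 7 to 12 inactive, and each ram gave 1 library per tissue, so the 36 libraries formed 6 groups of 6. No treatment, transgene or time point is given for any group. The animals of a group are different rams, and the spread within a group is a spread between rams.

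Tissue transcriptomes are usually dominated by a small number of genes. Some of these encode the specialised products of a tissue, such as hormones, pituitary prohormones or enzymes of melatonin synthesis. Others serve functions that every cell needs, among them the proteins of the ribosome, the elongation factors of translation, the cytoskeleton and mitochondrial energy production. Transcripts of the second kind are often used as reference genes, and because they take up many reads they also bear on how libraries are scaled. The deposited counts carry Ensembl sheep gene IDs without names, and 0 of the 26478 IDs matched the reference gene table used here. The members are therefore given by ID, with no statement of what any of them encodes, and lists of functional classes or cell type markers could not be applied.

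Library totals ran from 19251952 to 72951491 counts. The lowest count of any member in any library was 2562, for which counting error alone is 1.98%. Genes restricted to 1 tissue served to check the tissue labels. Their median CPM there, scaled by edgeR's TMM method, was at least 20 and at least 50 times that of both other tissues. They were picked by medians of these same libraries, so the check could show only a few libraries out of place. All 36 libraries carried the restricted genes of their own labelled tissue. The hypothalamus library of animal 4 also held pars tuberalis genes at a median of 17.1% of their pars tuberalis level, where the next hypothalamus library stood at 1.99%. The pineal library of animal 10 held hypothalamus genes at 8.95% of their hypothalamus level, and the next pineal library at 1.57%. The pars tuberalis libraries of animals 6 and 7 stood apart in the members themselves, as described below.

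The rule itself requires a fairly high level in all 3 tissues, and the lowest tissue level of any member was 264 CPM. The levels and ranks that follow therefore describe the choice of genes and are no check of it. All 3 tissue levels were at least 500 CPM for 42 members and at least 1000 CPM for 9. In the ranking of all genes by tissue level, 61 members stood among the first 500 in hypothalamus, 62 in pars tuberalis and 61 in pineal gland. Among the first 100 stood 41, 50 and 27 members respectively. The lowest member ranks were 554 in hypothalamus, 347 in pars tuberalis and 569 in pineal gland. CPM does not correct for transcript length, so these ranks order counts and not molecules.

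The members took a larger part of the counts in the pars tuberalis than in the other tissues. Together they held between 8.27% and 11.9% of the counts of a pars tuberalis library (median 9.40%, 12 libraries). They held 6.16% to 7.63% in the hypothalamus (median 7.05%) and 5.23% to 6.07% in the pineal gland (median 5.74%). The 3 ranges did not overlap. The other 85 genes with at least 1000 CPM ran the opposite way, with medians of 7.76% in the pars tuberalis and 11.5% in each of the other tissues. In bulk tissue, a lower level from fewer cells of a type and one from less RNA per cell cannot be told apart, and this applies to every tissue and animal difference given here.

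**Figure D1:**
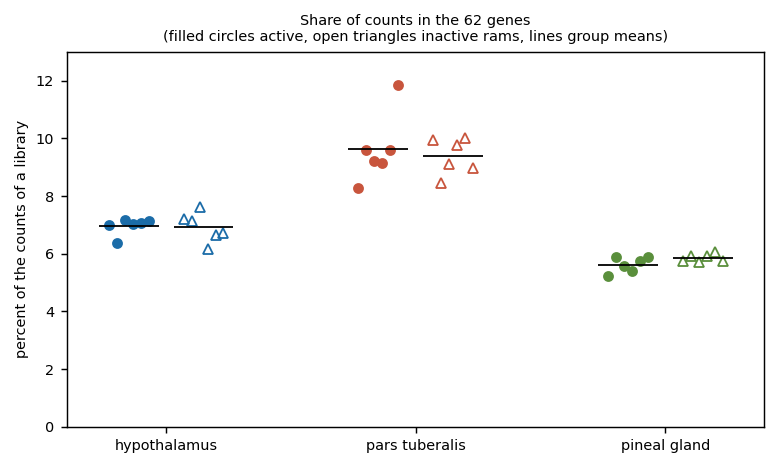
Percent of each library's counts held by the 62 genes, by tissue and state, with 1 point per ram and a line at the mean of each group of 6. The pars tuberalis libraries lie between 8.27% and 11.9%, above all hypothalamus libraries, and the pineal libraries lie lowest.

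The shares of active and inactive rams lay close together in each tissue. In the hypothalamus the members held 6.97% ± 0.289 (SD, n = 6) in active and 6.92% ± 0.515 (SD, n = 6) in inactive rams. The pars tuberalis shares were 9.62% ± 1.20 (SD, n = 6) and 9.38% ± 0.626 (SD, n = 6). Those of the pineal gland were 5.62% ± 0.274 (SD, n = 6) and 5.85% ± 0.144 (SD, n = 6). In each tissue the difference between the means was smaller than the larger of the 2 standard deviations.

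The pars tuberalis gave the highest of the 3 tissue levels for 43 of the 62 members (69.4%), the hypothalamus for 9 (14.5%) and the pineal gland for 10 (16.1%). Of all 16773 tested genes, 44.0% were highest in pars tuberalis, 28.1% in hypothalamus and 27.9% in pineal gland. The other 85 abundant genes were divided as 17 in pars tuberalis, 28 in hypothalamus and 40 in pineal gland. The pineal gland was the lowest tissue for 39 members, the pars tuberalis for 12 and the hypothalamus for 11. The commonest order was highest in the pars tuberalis and lowest in the pineal gland, found for 35 members. Scaling of the libraries bears on this count. The scaling factors of edgeR's TMM method had medians of 0.962 in hypothalamus, 1.09 in pars tuberalis and 0.978 in pineal gland, and on the TMM scale 40 members were highest in pars tuberalis, 11 in hypothalamus and 11 in pineal gland.

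Over the members, the median tissue level was 1275 CPM in the pars tuberalis (333 to 5546), 816 CPM in the hypothalamus (264 to 4476) and 685 CPM in the pineal gland (275 to 4835). On the TMM scale the medians were 1171, 822 and 693. The ratio of highest to lowest tissue level had a median of 2.73 and ran from 1.25 to 4.00. It lay between 1 and 2 for 14 members, between 2 and 3 for 27 and between 3 and 4 for 21. The members were thus spread over the permitted range of ratios, and most differed more than 2-fold between the tissues at either end.

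**Figure D2:**
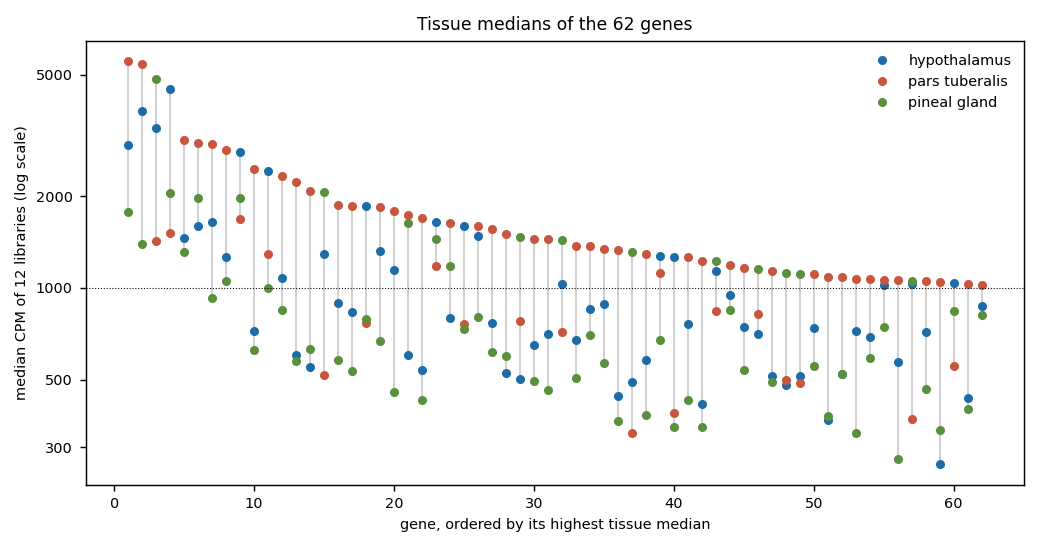
Tissue levels of the 62 genes in CPM on a log axis, as medians over 12 libraries, with 1 coloured point per tissue. A vertical line joins the lowest and highest level of each gene. For most genes the highest point is that of the pars tuberalis, whose levels have a median of 1275 CPM against 816 for hypothalamus and 685 for pineal gland.

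The libraries of the highest and the lowest tissue did not overlap for 49 of the 62 members, where the same held for 39.5% of all tested genes. The highest tissue stood apart from both others for 29 members, against 17.5% of all tested genes. These comprised 23 of the 43 members highest in the pars tuberalis, 4 of the 9 highest in the hypothalamus and 2 of the 10 highest in the pineal gland. The tissue with the highest median also gave the highest of a ram's 3 values in all 12 rams for 42 members. No share over all tested genes is available for that count. Since the rule used these tissue medians, nothing is read from the counts beyond the description. Without the pars tuberalis libraries of animals 6 and 7, 54 members had no overlap between highest and lowest tissue (49.9% of all tested genes) and 33 stood apart from both (23.6%). Without the hypothalamus library of animal 4 and the pineal library of animal 10, the counts were 49 (42.6%) and 29 (19.5%).

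Among the 10 members with the highest tissue level, 7 were highest in the pars tuberalis. ENSOARG00020020554 had a median of 5546 CPM there (2497 to 6683 over 12 libraries), 2948 CPM in the hypothalamus (1833 to 3836) and 1779 CPM in the pineal gland (1560 to 2013). Its pars tuberalis libraries all lay above the pineal ones but overlapped the hypothalamus. ENSOARG00020010739 had 5418 CPM in the pars tuberalis (4350 to 6216), 3799 in the hypothalamus (1733 to 5601) and 1392 in the pineal gland (1173 to 1707). For this gene the pineal range lay below both others.

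ENSOARG00020008040 and ENSOARG00020010263 were the members of the 10 whose pars tuberalis libraries lay above every library of the other tissues. ENSOARG00020008040 had 2826 CPM in the pars tuberalis (2181 to 3632), 1266 in the hypothalamus (961 to 1500) and 1057 in the pineal gland (887 to 1324). ENSOARG00020010263 had 2458 CPM (2107 to 3504), 722 CPM (557 to 943) and 624 CPM (505 to 725) in the same order. In both genes the ranges of the hypothalamus and the pineal gland overlapped. Within rams, the pineal gland gave the lowest of the 3 values in 9 of the 12 for each gene.

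ENSOARG00020014689 had 2970 CPM in the pars tuberalis (2181 to 4735), 1645 in the hypothalamus (1034 to 2194) and 926 in the pineal gland (670 to 1124). ENSOARG00020006843 had 3048 CPM in the pars tuberalis (2200 to 6687), 1457 in the hypothalamus (1060 to 2146) and 1313 in the pineal gland (887 to 2370). Its pars tuberalis range overlapped the pineal one only through the pineal value of animal 6, described below.

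The hypothalamus gave the highest level of 2 of the 10. ENSOARG00020018402 had 4476 CPM in the hypothalamus (3294 to 6041), 2053 in the pineal gland (1712 to 2522) and 1515 in the pars tuberalis (1155 to 2443). The hypothalamus stood apart, while the other tissues overlapped. ENSOARG00020012664 had 2794 CPM in the hypothalamus (2235 to 4179), 1977 in the pineal gland (1719 to 2254) and 1683 in the pars tuberalis (1501 to 2693), and all 3 ranges touched or overlapped.

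ENSOARG00020009753 was the member of the 10 with its highest level in the pineal gland, at 4835 CPM (3568 to 6166). It had 3345 CPM in the hypothalamus (1791 to 3878) and 1425 CPM in the pars tuberalis (1134 to 1796). The pineal and hypothalamus ranges overlapped, and the pars tuberalis lay below all pineal libraries. ENSOARG00020019330 had 2986 CPM in the pars tuberalis (2112 to 3550), 1977 in the pineal gland (1573 to 3554) and 1599 in the hypothalamus (310 to 3654). Its hypothalamus libraries spanned the values of both other tissues, so none of the 3 levels was apart from another.

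**Figure D3:**
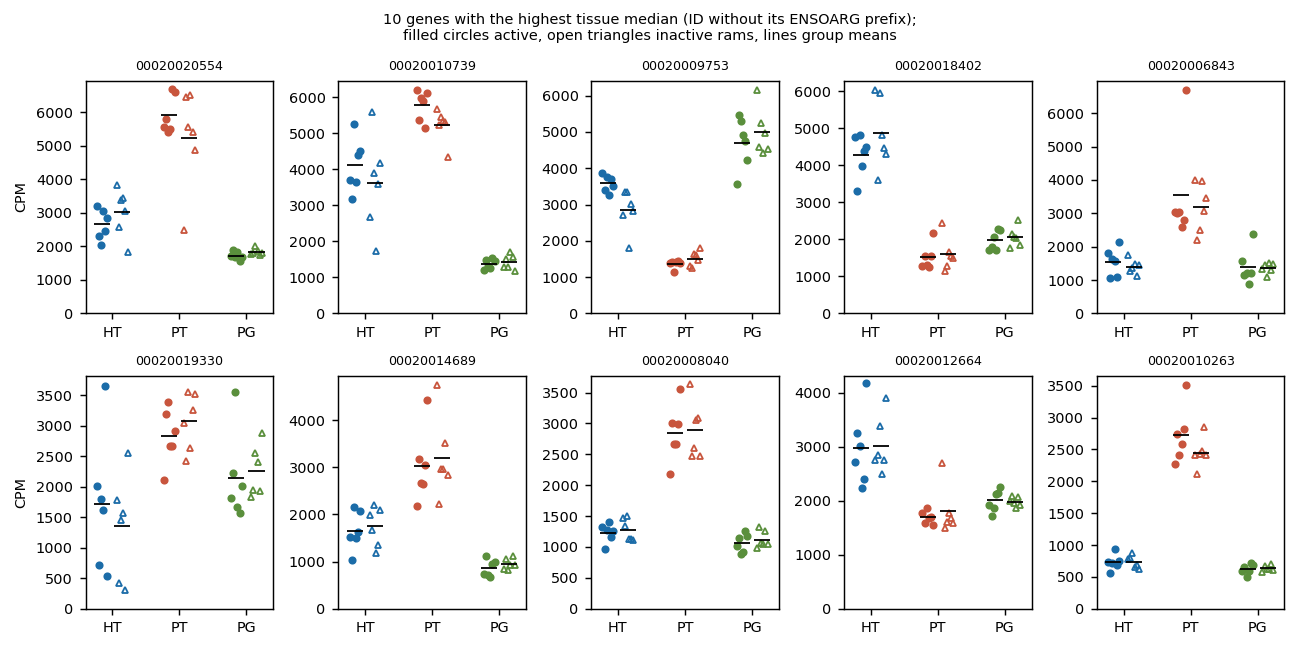
CPM on a linear axis of the 10 members with the highest tissue level, with 1 point per library, coloured by tissue. The pars tuberalis points of ENSOARG00020008040 and ENSOARG00020010263 lie above all others, and the hypothalamus points of ENSOARG00020019330 run from 310 to 3654 CPM.

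The limits of the rule cut through a continuous range of values. Just inside the minimum of 1000 CPM were ENSOARG00020020443 with a highest level of 1021 CPM and ENSOARG00020000452 with 1027 CPM. Just outside it were ENSOARG00020024426 with 997.5 CPM and ENSOARG00020010575 with 996.6 CPM. At the upper limit of the ratio, ENSOARG00020005311 at 3.998 and ENSOARG00020025291 at 3.97 were inside, and ENSOARG00020019090 at 4.13 and ENSOARG00020002423 at 4.16 were outside. The lowest ratios of any members were 1.25 for ENSOARG00020020443 and 1.39 for ENSOARG00020005655.

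The spread between rams of 1 tissue and state was not used to choose the members. It was measured as the coefficient of variation (CV, the SD divided by the mean) of TMM-scaled CPM in each group of 6, averaged over the 6 groups. The members had a median CV of 17.8%, from 7.95% to 59.3%. The median was 26.5% over all tested genes and 33.3% over the other 85 abundant genes. A CV under 15% was found for 22 members and one over 30% for 5. On CPM from library totals the members' median CV was 15.6%. By tissue the median was 18.9% in hypothalamus, 17.9% in pars tuberalis and 13.8% in pineal gland. Without the libraries of animals 6 and 7 the pars tuberalis value was 12.2%. The pineal gland was the most variable tissue for 4 members.

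ENSOARG00020012049 varied least on the TMM scale, with a CV of 7.95%. Its values ran from 834 to 1230 CPM in the hypothalamus, 781 to 1159 CPM in the pars tuberalis and 654 to 862 CPM in the pineal gland. ENSOARG00020000397 had a CV of 8.42%. It ran from 942 to 1301 CPM, 801 to 879 CPM and 1077 to 1337 CPM in the same tissues. Its pars tuberalis libraries all lay below those of the other tissues. ENSOARG00020026352 followed at 8.93%.

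ENSOARG00020000807 varied most, with a CV of 59.3%. It ran from 437 to 3230 CPM in the hypothalamus, 562 to 3834 CPM in the pars tuberalis and 472 to 1287 CPM in the pineal gland. The highest pars tuberalis value, 3834 CPM, came from animal 7 and the next, 1569 CPM, from animal 6. ENSOARG00020019330 followed at 35.8% and ENSOARG00020011440 at 34.0%. The members thus included both genes that varied little between rams and genes that varied several-fold within a tissue.

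The variation of each gene over the 36 libraries was divided into parts for tissue, state, state by tissue, animal and remainder, on log2 of TMM-scaled CPM plus 0.5. For the median member, tissue took up 84.7%, against 60.3% for the median tested gene. State took up 0.358% (0.601% for tested genes) and state by tissue 0.334% (0.917%). Animal took up 5.86% (13.4%) and the remainder 8.27% (19.8%). An animal part arises even where a ram's tissues share nothing. Of the variation within groups, animal took up a median of 41.6% for members and 39.0% for tested genes, where no sharing gives 33.3%. These shares describe the members and all tested genes side by side, and the tissue share is one that the rule bears on.

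Within tissues, part of the members moved up and down together from ram to ram. For every pair of members, Pearson's r was computed over the 36 libraries from the deviations of log2 CPM from the group means. These are correlations over libraries that share animals and totals, given as a description. Over 1891 pairs the median r was 0.155, and 145 pairs (7.67%) had r of at least 0.8. Among the other 85 abundant genes the median r was 0.0515, and 32 of 3570 pairs (0.896%) reached 0.8. An r of at least 0.8, a limit chosen after the values were seen, joined 28 members into a group of 23 genes and a group of 5, and left 34 members unlinked. Of the 23, 20 were highest in pars tuberalis, 2 in hypothalamus and 1 in pineal gland.

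The closest pair was ENSOARG00020021579 with ENSOARG00020012320, with r = 0.969 (Spearman's rho 0.946) over 36 libraries. ENSOARG00020021579 with ENSOARG00020012536 had r = 0.962, and ENSOARG00020022219 with ENSOARG00020012320 had r = 0.961. ENSOARG00020014689 with ENSOARG00020022219 and ENSOARG00020009205 with ENSOARG00020021249 both had r = 0.959. Without the pars tuberalis libraries of animals 6 and 7 the 5 values lay between 0.941 and 0.957, so the closeness of these pairs did not rest on those libraries.

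ENSOARG00020012320 shows the pattern library by library. In the hypothalamus of animals 1 to 12 it stood at 635, 515, 890, 641, 674, 927, 826, 763, 977, 557, 671 and 841 CPM. Its pars tuberalis values were 811, 1144, 964, 946, 1084, 2007, 2114, 851, 1020, 1121, 1405 and 991 CPM. Its pineal values were 404, 544, 388, 331, 590, 634, 434, 627, 410, 498, 686 and 402 CPM. The pars tuberalis values of animals 6 and 7 were the highest of all 36, while in the hypothalamus and the pineal gland the highest values came from animals 9 and 11.

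The same pars tuberalis libraries stood out over the whole group of 23. For the pars tuberalis of animal 6, all 23 genes lay above their group mean, with a median of 1.47-fold. In that of animal 7, 19 did, with a median of 1.28-fold. At the other end, 0 of 23 lay above the group mean in 6 libraries. These were the pars tuberalis of animals 1 (median 0.793-fold), 8 (0.807-fold) and 9 (0.926-fold), the hypothalamus of animal 2 (0.790-fold) and the pineal gland of animals 4 (0.869-fold) and 7 (0.911-fold). All 23 lay above it also in the hypothalamus of animal 9 and in the pineal gland of animals 5 and 6. Animal 6 was high in its hypothalamus too, with 22 of 23 genes above the mean (1.16-fold). Animal 7 was not high throughout, with 22 of 23 above the mean in the hypothalamus (1.10-fold) and 0 of 23 in the pineal gland. The pars tuberalis libraries of animals 6 and 7 also had the lowest TMM factors of that tissue, 1.01 and 0.883, with at least 1.07 in the other 10, and totals of 30448126 and 26850131 counts. The part of library composition, RNA quality and tissue sampling in this pattern was not tested.

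The group of 5 comprised ENSOARG00020016508, ENSOARG00020003583, ENSOARG00020012049, ENSOARG00020000452 and ENSOARG00020020443, and it ran opposite to the group of 23. In the pars tuberalis of animal 7, 0 of 5 lay above the group mean, with a median of 0.613-fold, and in that of animal 6 the median was 0.906-fold. In the hypothalamus of animal 2 all 5 lay above it, with a median of 1.71-fold. Over the 36 libraries the median deviations of the 2 groups had r = -0.645 (rho -0.694). The value was -0.726 in hypothalamus, -0.580 in pars tuberalis and -0.788 in pineal gland, with 12 libraries each. Both groups were formed from the same deviations, so this value carries no test.

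**Figure D4:**
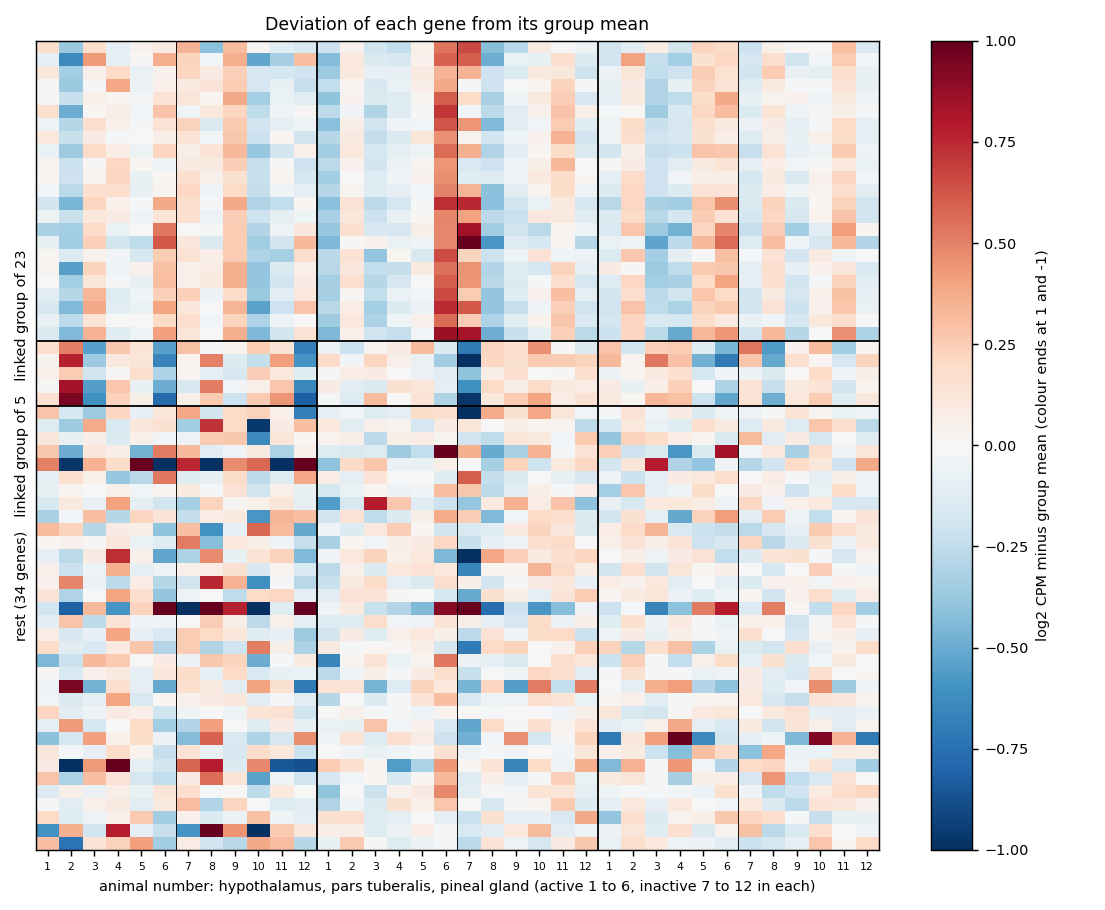
Deviation of log2 CPM from the mean of its tissue and state group, for the 62 genes (rows, ordered by linked group) in the 36 libraries (columns, by tissue and animal). The pars tuberalis columns of animals 6 and 7 show most of the 23 linked genes above their group means, and the 5 genes of the smaller group run opposite.

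Whether a ram was high or low for a gene in all 3 of its tissues at once was tested with an animal term within state (edgeR's quasi-likelihood test, 10 degrees of freedom, adjusted over 16773 genes). Of the 62 members 1 was called, where 4.51% of all tested genes were. At an unadjusted p below 0.05 there were 9 members (14.5%), against 16% of all genes. The unadjusted count depended on 1 ram and on the scaling. It was 0 without animal 6 (11.9% of all genes) and 2 with libraries scaled by their totals alone (15.2%), and DESeq2 gave 17 (24.3%).

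The called gene was ENSOARG00020006843 (edgeR adjusted p = 0.00345). In the hypothalamus of animals 1 to 12 it stood at 1807, 1060, 1619, 1572, 1080, 2146, 1737, 1284, 1359, 1476, 1117 and 1438 CPM. The pars tuberalis values were 3051, 3020, 3045, 2602, 2813, 6687, 3996, 2200, 2487, 3971, 3067 and 3443 CPM. The pineal values were 1565, 1153, 1202, 887, 1201, 2370, 1324, 1452, 1077, 1520, 1303 and 1466 CPM. Animal 6 was highest in each tissue, at 1.43-fold, 2.01-fold and 1.79-fold of the geometric mean of its group. The call rested on this ram, since without animal 6 the edgeR adjusted p was 0.539 and 0 members were called (3.6% of all genes).

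The study's own question was which genes differ between sexually active and inactive rams. State did not enter the choice of members, so it could be tested on them (edgeR's quasi-likelihood test over all genes, with Benjamini-Hochberg adjusted p below 0.05 as a call). None of the 62 members was called in the hypothalamus, where 0.0954% of all tested genes (16) were. None was called in the other tissues, where 0% of all genes were. The lowest edgeR adjusted p of any member was 0.238 in hypothalamus, 0.967 in pars tuberalis and 1 in pineal gland. DESeq2 also called 0 members in each tissue, where it called 0.857% of all genes (hypothalamus), 0.00597% (pars tuberalis) and 0.124% (pineal gland). Counts summed over the 3 tissues of each ram gave 0 calls (0% of all genes, lowest edgeR adjusted p of a member 0.933), and the test of a state effect that differs between tissues gave 0 (0% of all genes). The sums were of raw counts, so the weight of each tissue followed its library totals and differed between rams.

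At an unadjusted edgeR p below 0.05, 9 members (14.5%) differed in the hypothalamus, against 9.33% of all tested genes. Of these, 5 were higher in active rams (5.74% of all genes) and 4 lower (3.59%). For the pars tuberalis 0 members passed (3.54% of all genes), and in the pineal gland 0 (1.94%). DESeq2 gave 9 members in the hypothalamus (10.2% of all genes), 0 for the pars tuberalis (3.98%) and 0 for the pineal gland (2.28%). The hypothalamus count rested on single rams. It was 3 without animal 10 (6.14% of all genes), 4 without animal 2 (6.77%), 5 without animal 7 (8.35%) and 14 without animal 8 (12.8%). With libraries scaled by their totals alone it was 5 (9.6%), and with the hypothalamus libraries fitted alone it was 3 (4.54%). The members' share was thus below the background without animals 2, 7 or 10 and with scaling by totals alone. It was above the background in every other alternative fit, as with no filter on low counts (12.9%, all genes 8.37%). No result about the members is read from these shares. Over the summed tissues 2 members passed (4.66%), or 11 without animal 6 (12.4%), and in the test of differing state effects 2 (3.24%). The TMM-scaled values of active and inactive rams overlapped for all 62 members in each tissue. They did not overlap for 0.113% of all genes in hypothalamus, 0.0894% in pars tuberalis and 0.0537% in pineal gland.

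The intervals bound how large an unseen state difference could be. For each tissue they rest on a spread per gene that the fit pooled over all tissues. In the hypothalamus the 95% interval of the fold change excluded a 1.5-fold difference in either direction for 45 members (72.6%), against 41.9% of all tested genes. It did so for 53 members in the pars tuberalis (85.5%, all genes 42.9%) and in the pineal gland for 53 (85.5%, all genes 49.6%). A 2-fold difference was excluded for 60 members in the hypothalamus (96.8%, all genes 72.1%). It was excluded for 61 in the pars tuberalis (98.4%, all genes 72.4%) and 61 in the pineal gland (98.4%, all genes 77.2%). By these intervals ENSOARG00020000807 was the exception in all of them, together with ENSOARG00020005722 in the hypothalamus. The median SE of the members was 0.156 in every tissue. ENSOARG00020019330 had an SE of 0.368 in every tissue. Its CV was 62.5% (active) and 66.4% (inactive) in the hypothalamus, against 17.1% and 18.4% in the pars tuberalis. The bounds can therefore be too narrow where a gene varies more in a tissue than in the others. Bounds from the spread of each tissue alone are not given here. Over the summed tissues, weighted by library totals, a 2-fold difference was excluded for all 62, against 85.2% of all genes.

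The log2 differences (active minus inactive) had a median of -0.09 in hypothalamus, 0.01 in pars tuberalis and -0.06 in pineal gland. They ran from -0.28 to 0.68, from -0.62 to 0.27 and from -0.23 to 0.12 respectively. The fitted difference was below 0 for 42 members in hypothalamus, 29 in pars tuberalis and 54 in pineal gland. The hypothalamus median was -0.03 when libraries were scaled by their totals alone, and members that vary together are not independent, so no direction is read from these counts.

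**Figure D5:**
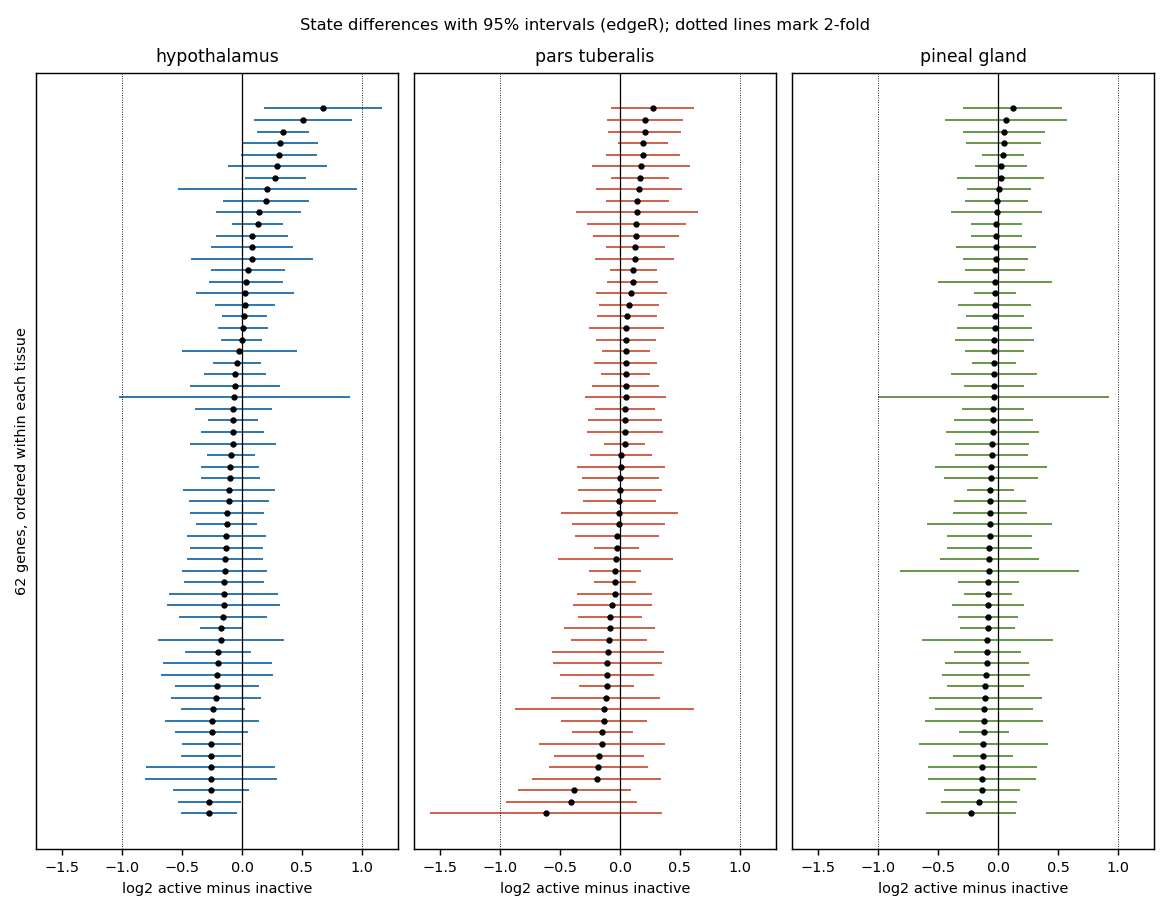
Fitted log2 difference between active and inactive rams with its 95% interval for the 62 genes in each tissue, ordered by size, with dotted lines at a 2-fold difference. The intervals, which rest on a spread per gene pooled over the tissues, lie within the lines for 60 genes in the hypothalamus. They do so for 61 in each of the other tissues.

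The members with the lowest p-values in the hypothalamus were looked at by ram, as genes chosen after their values were seen. ENSOARG00020003920 stood at 782, 1120, 739, 833, 957 and 655 CPM in active animals 1 to 6 and at 520, 844, 638, 584, 674 and 603 CPM in inactive animals 7 to 12. The groups overlapped, and the log2 difference was 0.34 (SE 0.107, edgeR adjusted p = 0.238). ENSOARG00020005722 stood at 220, 427, 292, 575, 313 and 284 CPM in active and at 118, 451, 243, 60, 213 and 192 CPM in inactive animals. Its log2 difference was 0.68 (SE 0.242, edgeR adjusted p = 0.323).

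The inactive value of ENSOARG00020005722 in animal 8 lay above 5 of the 6 active ones. Without animal 8 the log2 difference was 0.97 with an edgeR adjusted p of 0.047, and 0.321% of all genes were then called. Its highest value came from the hypothalamus library of animal 4, which carried pars tuberalis genes. Without that library the log2 difference was 0.52. The log2 difference kept its direction in every alternative fit, between 0.48 and 0.97, with edgeR, DESeq2 or limma adjusted p from 0.047 to 0.999.

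Lower in active rams were ENSOARG00020018731 and ENSOARG00020003476, neither past the threshold. ENSOARG00020018731 stood at 1076, 864, 907, 972, 1124 and 738 CPM in active and at 1114, 984, 1039, 1328, 1052 and 1018 CPM in inactive animals, a log2 difference of -0.28 (SE 0.114, edgeR adjusted p = 0.401). ENSOARG00020003476 stood at 542, 504, 564, 581, 505 and 581 CPM in active and at 765, 502, 716, 618, 563 and 575 CPM in inactive animals. Its log2 difference was -0.26 (SE 0.123, edgeR adjusted p = 0.506). In both genes the states overlapped. The unadjusted edgeR p was 0.021 for ENSOARG00020018731 and 0.0423 for ENSOARG00020003476, and neither passed after adjustment over all tested genes.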

How the data were processed

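Messenger RNA was sequenced as paired reads of 151 bases from 3 tissues of 12 rams. The submitters' processing notes name edgeR, HTSeq, FastQC and STAR 2.7.8a without their roles. For the genome build, annotation, strand setting and handling of molecular identifiers, nothing is given in the sources used here, so reads of near-identical or overlapping genes may be shared and counting errors cover counting only. The values deposited by the authors are whole-number counts without normalisation, for 26478 IDs in 36 libraries. All columns matched 1 labelled sample, and all 630 pairs of libraries differed by more than sampling noise (lowest chi-square per degree of freedom 25.6).

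The member rule was applied to CPM from library totals. Members, lists and tests were chosen with earlier results of these data known. Counts were tested in R 4.3.3 with edgeR 4.0.16 (filterByExpr with a minimum count of 10, TMM, robust quasi-likelihood), as 1 fit of 6 groups over 36 libraries. It kept 16773 genes, 17232 for counts summed per animal, and all 62 members passed the filter. P-values were Benjamini-Hochberg adjusted over all tested genes. Alternatives used DESeq2 1.42.0, limma 3.58.1 (voom with the animal as a block), other scalings, no filter, other rule limits and each animal left out. Descriptions were computed in Python 3.11.15 with numpy 2.4.6 and pandas 2.3.3.

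Named were the 10 members with the highest tissue level, those nearest the rule's limits, and the 3 with the highest and 3 with the lowest CV. Also named were the 5 closest pairs, the linked group of 5, the called members, and up to 2 per direction for state. The replicate number is the ram, so its 3 libraries are paired across tissues, per the labels. The check of the pairing gave median correlations over tested genes of 0.0448 (hypothalamus with pars tuberalis), 0.176 (hypothalamus with pineal gland) and 0.214 (pars tuberalis with pineal gland). In the same order, 5, 7 and 10 of the 12 rams exceeded 0.1. Over the members the medians were -0.0207, -0.0836 and 0.262. The pairing therefore rests on the labels.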

Additional observations from a re-analysis of the deposited data

Results flagged for a closer look

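A value was marked when 1 ram of a group of 6 lay so far from the other 5 that its gap to the nearest of them, as a share of the group's range, exceeded the 95% critical value of Dixon's test. Chance marks about 1 group in 20, and over all members 38 of 372 combinations of gene and group were marked. No share over all tested genes is available for these marks, and members that vary together are not marked independently. The values below are those of the share of counts and of the genes named in the report, with no explanation weighed.

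The pars tuberalis library of animal 6 (active) was marked most often, as the highest of its group for 14 members. The members' share of its counts was 11.9%. ENSOARG00020006843 stood at 6687 CPM there, with the next ram at 3051 CPM. ENSOARG00020018402 stood at 2162 CPM (next 1552), ENSOARG00020009205 at 2951 CPM (next 1991) and ENSOARG00020021249 at 1990 CPM (next 1435). ENSOARG00020022219 stood at 1908 CPM (next 1197), ENSOARG00020012320 at 2007 CPM (next 1144) and ENSOARG00020000807 at 1569 CPM (next 889.5).

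The pars tuberalis library of animal 7 (inactive) was marked as the highest of its group for 5 members and as the lowest for 7. It was high for ENSOARG00020000807 at 3834 CPM (next 926.3), ENSOARG00020012664 at 2693 CPM (next 1777), ENSOARG00020011440 at 2884 CPM (next 1320) and ENSOARG00020021579 at 2522 CPM (next 1602). It was low for ENSOARG00020003583 at 312.6 CPM (next 748.8), ENSOARG00020020443 at 468.5 CPM (next 967.5) and ENSOARG00020000452 at 620.1 CPM (next 989.1). It was also low for ENSOARG00020012049 at 780.6 CPM (next 1026) and ENSOARG00020003920 at 575.5 CPM (next 814.2).

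Single values came from other libraries. In the pars tuberalis ENSOARG00020010739 was low in animal 12 at 4350 CPM (next 5221), and ENSOARG00020009753 was low in animal 3 at 1134 CPM (next 1388). In the pineal gland of active rams ENSOARG00020019330 stood at 3554 CPM in animal 3 (next 2234) and ENSOARG00020003920 at 1517 CPM in animal 4 (next 1212). In the hypothalamus of active rams the members' share was low in animal 2, at 6.39%.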

How the results depend on the processing

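The number of members was 207 with a minimum of 500 CPM and 15 with 2000 CPM. On the TMM scale it was 57 (53 shared with the 62), with means in place of medians 69 (60 shared), and with each animal left out 60 to 66 (57 to 61 shared). The pineal share of counts was 5.35% with the members found on the TMM scale. Leaving out each animal gave 0 to 1 members called for state in the hypothalamus, with 1 (ENSOARG00020005722) without animal 8 (0.321% of all genes). It gave 0 to 1 for the animal effect, with 0 without animal 6 (3.6% of all genes, edgeR adjusted p of ENSOARG00020006843 0.539). DESeq2 called 5 members for the animal effect, where it called 12.1% of all genes. With the replicate block (animal), edgeR called 0 members for state by tissue (0% of all genes). At an unadjusted p below 0.05 that fit gave 1 member, for which no share over all genes is available. Voom with the replicate block called 0 members for state in every tissue. Over all genes it called 0.00596% in the hypothalamus and 0% in each of the other tissues. Without animal 6, 11 members in place of 2 had an unadjusted p below 0.05 for state over the 3 tissues (12.4% of all genes). None of them was called (0% of all genes). Without the pars tuberalis libraries of animals 6 and 7, 133 pairs had r of at least 0.8, and on the TMM scale 246. These settings, the CV from library totals, and the setting without the hypothalamus library of animal 4 and the pineal library of animal 10, were chosen after seeing the data. The causes of these changes were not tested. Counting error was at most 1.98% for any member in any library.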
